A study of Mus musculus with 45 samples.

Results

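The genes described here carry glucose into the cell, take it through glycolysis to pyruvate, and exchange pyruvate with lactate or pass it to the mitochondrion. They are 10 genes chosen by name out of the 26214 in the expression table: the glucose transporters Slc2a1 and Slc2a3, the hexokinase Hk1, the phosphofructokinases Pfkl and Pfkp, the pyruvate kinase Pkm, the lactate dehydrogenases Ldha and Ldhb, the pyruvate carrier subunit Mpc1 and the pyruvate dehydrogenase subunit Pdha1. All 10 were found in the table.

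The study asked how the loss of H3K36 methylation in mouse oocytes alters chromatin, DNA methylation and transcripts, and RNA was sequenced from fully grown oocytes (FGOs) and late two-cell embryos. Control FGOs came from H3f3b K36M-flox/+ females without Cre, and K36M FGOs from H3f3b K36M-flox/+; Gdf9-Cre females, in which the oocyte-specific Gdf9 promoter drives Cre and the H3.3 protein with lysine 36 changed to methionine is made in the oocyte. Both carried the floxed allele, on a hybrid C57BL/6 / 129 background, and FGOs were taken at 3 to 4 weeks of age, with 5 FGOs pooled per library and 3 libraries per group. Two-cell embryos came from superovulated control and K36M females by in vitro fertilization with JF-1 sperm, were cultured in KSOM medium and were collected singly at 31 to 32 h. Embryos of K36M mothers can have inherited either the mutated or the normal H3f3b allele, and the genotype of each was not given. Control replicate 4 was left out because of a technical problem, and 7 control and 8 K36M oocyte-derived embryos remained.

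Mammalian oocytes and early cleavage embryos are known to rely mainly on pyruvate and lactate, and the use of glucose through glycolysis grows as the embryo approaches the blastocyst stage. Hexokinase traps glucose in the cell, phosphofructokinase is the main control point of glycolysis, and pyruvate kinase makes pyruvate. Lactate dehydrogenase, a tetramer of A and B subunits, interconverts pyruvate and lactate, the pyruvate carrier brings pyruvate into mitochondria, and pyruvate dehydrogenase turns it into acetyl-CoA.

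Values are TPM, a measure of transcript abundance scaled to gene length and to a sum of 1000000 per library. A TPM is a share of the RNA sequenced, so a lower share and less RNA per cell cannot be told apart, and TPM does not keep how many reads a value rests on. The study lists total reads per library, more for every FGO library than for any embryo. These totals were not used here, and their part in the stage differences was not tested. Between libraries of the same group, Spearman's rho over genes was 0.935 to 0.950 in FGOs and 0.705 to 0.854 in embryos, so single embryos were much less alike than pools of FGOs. All 12 oocyte markers were above 0 in every FGO library, with a summed TPM of 21154 to 21687 in control and 18861 to 20150.1 in K36M FGOs, and of 1335 to 4729 in embryos. The 8 two-cell markers in the table summed to 34.5 to 73.9 TPM in FGOs and 270.4 to 2440 TPM in embryos. The 15 granulosa cell markers summed to 153 to 252 TPM in FGOs and 110.3 to 643 TPM in embryos. Nr5a2 was the highest of them in every group, with group means of 71.0 to 118 TPM in FGOs and 174 to 201 TPM in embryos. The 5 that define granulosa cells (Fshr, Inha, Foxl2, Amh, Cyp19a1) summed to 34.6 to 46.5 TPM in FGOs and 0 to 114 TPM in embryos. The 114 TPM was in K36M oocyte-derived embryo replicate 8, where Foxl2 was at 103.9 TPM. Stroma markers reached 57.4 TPM and blood markers 306 TPM, both in an embryo. H3f3b was at 264.7 to 308 TPM in control and 377 to 418 TPM in K36M FGOs, a level that does not read which allele was expressed.

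Ldhb stood far above the other genes in FGOs. In the control FGOs the order of median TPM was Ldhb, Pkm, Pdha1, Slc2a1, Mpc1, Pfkp, Pfkl, Ldha, Hk1 and Slc2a3, and the ranges of the neighbours Pfkp and Pfkl, Ldha and Hk1, and Hk1 and Slc2a3 overlapped. K36M FGOs had the same first 7 genes in the same order, with the ranges of Mpc1 and Pfkp overlapping, and with Hk1 (1.23 TPM) and Ldha (1.07 TPM) near each other. In control embryos the order became Ldhb, Pkm, Mpc1, Pdha1, Slc2a3, Pfkl, Ldha, Slc2a1, Hk1 and Pfkp, and every pair of neighbours overlapped except Pkm and Mpc1. In K36M oocyte-derived embryos Pkm had the highest median and Ldhb came next, with overlapping ranges, and the next gene, Pdha1, lay below both. The 10 genes made up 0.397% to 0.475% of all TPM in FGOs and 0.0541% to 0.110% in embryos, and Ldhb alone was 91.7% to 92.7% of that sum in FGOs and 20.95% to 44.9% in embryos. Without Ldhb, the other 9 genes summed to 314 to 348 TPM in FGOs and 341 to 653 TPM in embryos.

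**Figure D1:**
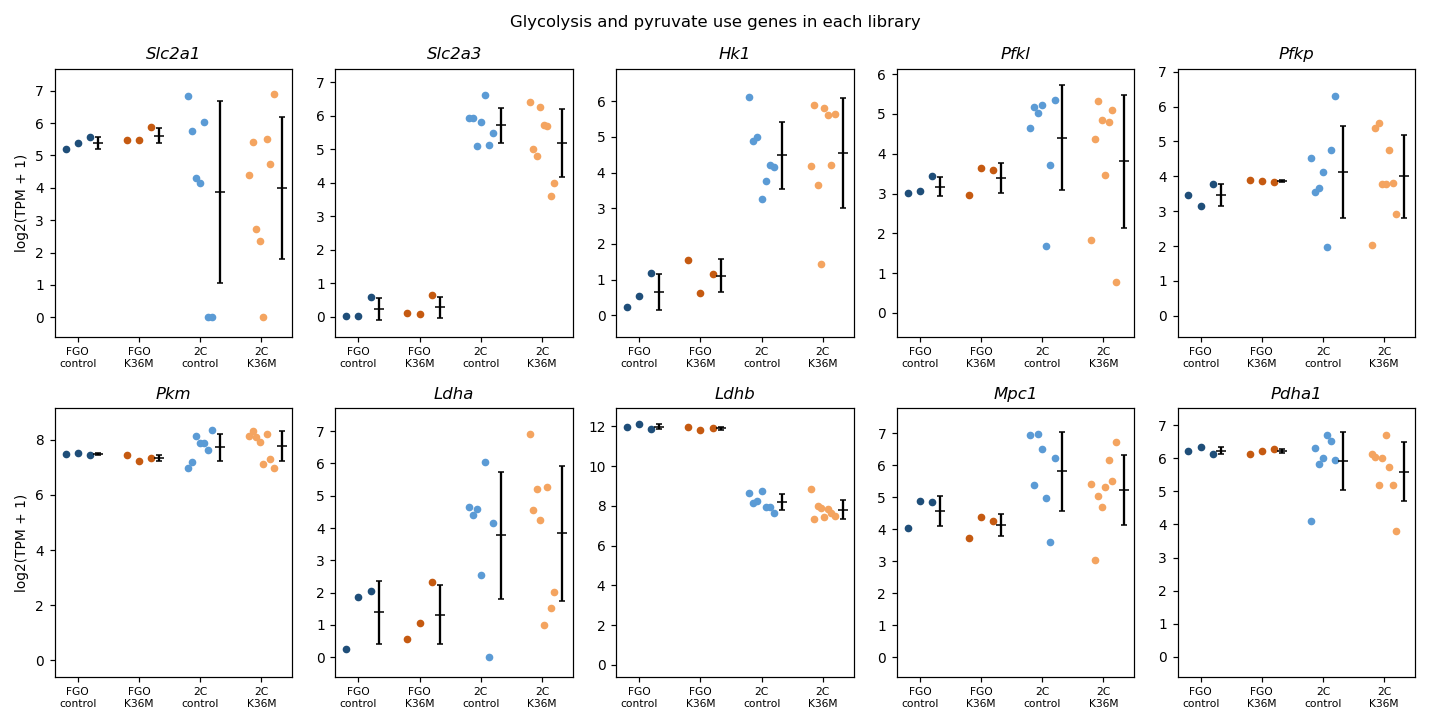
Expression of the 10 genes as log2(TPM + 1) in each library of control and K36M FGOs (3 pools each) and of two-cell embryos (2C) from control (7) and K36M (8) oocytes. Points are libraries, and the bar beside each group gives its mean and SD. Ldhb is near 12 in every FGO library and between 7 and 9 in every embryo, while Slc2a3 and Hk1 are near 0 to 2 in FGOs and higher in most embryos.

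The plot of each library shows how unlike single embryos were. The SD of log2(TPM + 1) over the 7 control embryos ran from 0.39 for Ldhb to 2.81 for Slc2a1, against a median of 1.26 over 16613 genes, and 4 of the 10 genes lay above that median. In the K36M oocyte-derived embryos it ran from 0.48 for Ldhb to 2.19 for Slc2a1, against a median of 1.45, again with 4 genes above. The corresponding medians over all genes were 0.19 in control and 0.25 in K36M FGOs.

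Comparisons were made on log2(TPM + 1) with limma: K36M against control in each stage, and embryos against FGOs in each genotype. 1 further test asked whether the genotype difference changed between stages. Each fit gave its groups 1 common variance per gene, although single embryos spread more than pools of FGOs. P-values were adjusted over all genes tested by the Benjamini-Hochberg method, and a gene was called at an adjusted p under 0.05. A difference on this scale understates the fold change of a gene with a low TPM. The labels do not say which libraries share a mother, so p-values measure the spread between these libraries.

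In TPM, the largest difference between stages among these genes was that of a lactate dehydrogenase. Ldhb (chr6:142490249-142507957, GRCm38.p6), whose subunit is commonly described as favouring lactate use, was at 4020.45, 4399 and 3796 TPM in the control FGOs and at 4078, 3654 and 3843 TPM in the K36M FGOs. These 6 values lay within a narrow band and the groups overlapped. Control embryos ranged from 202 to 430.1 TPM (median 284, n = 7), and K36M oocyte-derived embryos from 162 to 465 TPM (median 213, n = 8). Every embryo was below every FGO library. In controls the difference was -3.79 (SE 0.23, limma adjusted p = 2.12e-07), or 13.8-fold lower, and the exact permutation p over libraries was 0.00833, the smallest that 7 against 3 can give. In K36M libraries it was -4.10 (SE 0.27, limma adjusted p = 1.55e-07), or 17.2-fold lower, with an exact permutation p of 0.00606, again the smallest possible. K36M FGOs differed from control FGOs by -0.08 (SE 0.07, 95% confidence interval -0.24 to 0.09, limma adjusted p = 0.714).

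Ldha (chr7:46842274-46855627), whose subunit is commonly described as favouring lactate production, was close to 0 in FGOs. It measured 0.195, 2.62 and 3.14 TPM in the control FGOs and 0.471, 1.07 and 4.02 TPM in the K36M FGOs. Control embryos ranged from 0 to 65.0 TPM (median 19.98), with 1 embryo listed at 0, and K36M oocyte-derived embryos from 0.992 to 118.5 TPM (median 20.2). Of the control embryos 6 of 7 lay above every control FGO library, and of the K36M oocyte-derived embryos 5 of 8 lay above every K36M FGO library. The stage difference was 2.38 (SE 1.09, limma adjusted p = 0.119) in controls and 2.53 (SE 1.18, limma adjusted p = 0.139) in K36M libraries, so it did not pass the threshold in either. It passed under array weights in both genotypes (limma adjusted p = 0.0162 and 0.0132). Quantile normalization carried it past in K36M libraries (3.30, limma adjusted p = 0.0385), and the replicate block in controls (3.16, limma adjusted p = 0.0317). That block leaves the stage difference to replicates 1 to 3, the only numbers that FGOs and embryos share.

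Within each library, Ldhb made up 99.9% to 100% of the summed TPM of Ldhb and Ldha in the 6 FGO libraries. In embryos its share was 79.1% to 100% (median 93.4%) in controls and 79.7% to 99.4% (median 90.4%) after K36M. This share does not depend on how libraries were scaled to each other. Ldhb therefore remained the more abundant of both transcripts in every embryo.

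For this pair of genes, the stretches before a start site of each are shown, read from the RefSeq promoter table of GRCm38.p6 on the gene's strand and written 5′ to 3′, with CG dinucleotides in capitals. The Ldhb stretch, chr6:142507958-142508207 on the minus strand, lies between genes and ends at the base before the annotated start. The Ldha stretch, chr7:46846832-46847081 on the plus strand, ends before the downstream of the 2 starts listed for this gene and lies in an intron of its longer transcripts.
Ldhb: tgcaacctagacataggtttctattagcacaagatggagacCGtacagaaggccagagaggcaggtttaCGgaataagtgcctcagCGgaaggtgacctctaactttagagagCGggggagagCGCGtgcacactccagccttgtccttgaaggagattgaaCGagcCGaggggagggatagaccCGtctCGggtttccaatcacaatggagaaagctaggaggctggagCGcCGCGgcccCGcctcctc
Ldha: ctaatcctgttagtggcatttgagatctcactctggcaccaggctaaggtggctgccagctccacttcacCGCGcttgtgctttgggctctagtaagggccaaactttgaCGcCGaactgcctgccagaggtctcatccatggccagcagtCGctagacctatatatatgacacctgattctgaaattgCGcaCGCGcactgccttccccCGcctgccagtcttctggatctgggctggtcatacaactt
The Ldhb stretch holds 14 CG dinucleotides and this Ldha stretch 9, while the stretch before the upstream Ldha start holds 25, against a median of 6 over 32851 such stretches of 250 bases. Across the 13 starts listed for 9 of the 10 genes the median was 15, with a range of 1 to 32. The letters CACGTG, an E-box that reads the same on both strands, were found before 1 of the 13 starts, the upstream start of Ldha, and before 6.02% of all starts. ACGTG, which is contained in that E-box and was searched on both strands, was found before 3 of 13 starts (in Slc2a1, Pkm and Ldha) and 16.6% of all, and GGGCGG before 6 of 13 and 32.7% of all. The RNA data do not show which start was used.

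Of the glucose transporters, Slc2a3 was called higher in embryos and Slc2a1 was not called. Slc2a1 (chr4:119108745-119137330), the transporter of most cells at rest, was at 35.8, 40.8 and 45.96 TPM in control FGOs and 43.2, 43.4 and 57.99 TPM in K36M FGOs. Single control embryos held 0 to 113 TPM (median 18.6, with 2 listed at 0) and K36M oocyte-derived embryos from 0 to 117 TPM (median 22.9, with 1 listed at 0). The embryos spread to both sides of the FGOs, and the stage difference was -1.51 (SE 1.38, limma adjusted p = 0.437) in controls and -1.61 (SE 1.15, limma adjusted p = 0.346) in K36M libraries. Array weights moved the K36M difference to -1.68 and past the threshold (limma adjusted p = 0.0275). The replicate block turned the control difference to 0.25 (limma adjusted p = 0.797), and only replicates 1 to 3 bear on that value.

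Slc2a3 (chr6:122727809-122802363), a transporter with a high affinity for glucose, was nearly absent from FGOs. It was at 0.0238, 0.0212 and 0.519 TPM in control and 0.0860, 0.0625 and 0.564 TPM in K36M FGOs. Control embryos held 33.1 to 97.0 TPM (median 55.4) and K36M oocyte-derived embryos 11.3 to 84.8 TPM (median 41.0). No embryo overlapped with the FGOs of its genotype. The difference was 5.49 (SE 0.51, limma adjusted p = 5.75e-06) in controls and 4.91 (SE 0.72, limma adjusted p = 0.000209) in K36M libraries. Slc2a3 reached the 1 TPM mean needed for testing only through the embryos, so both calls had little room to go otherwise. Slc2a3 took 0.0520% to 1.12% of the summed TPM of both transporters in the FGO libraries, 35.1% to 100% (median 64.0%) in control embryos and 11.4% to 100% (median 67.1%) in K36M oocyte-derived embryos.

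**Figure D2:**
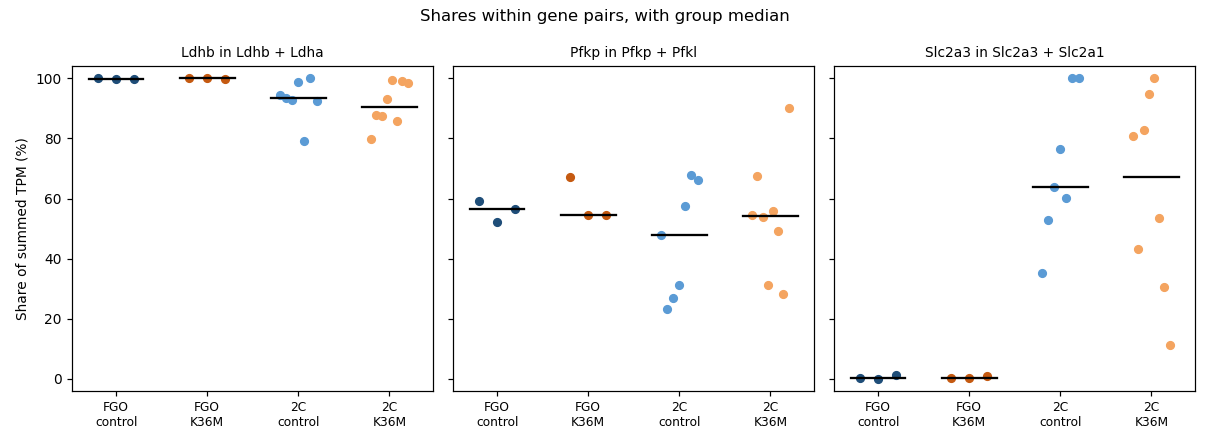
Share of the first gene in the summed TPM of a pair, in percent, for each library (points) with the group median (line). Ldhb holds at least 79.1% of its pair in every library, Slc2a3 at most 1.12% in FGOs and at least 11.4% in embryos, and the Pfkp share of FGOs and embryos overlaps.

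Hk1 (chr10:62268855-62379920), the hexokinase of most tissues, was low in FGOs, at 0.167, 0.466 and 1.28 TPM in control and 1.91, 0.549 and 1.23 TPM in K36M libraries. Control embryos held 8.59 to 68.2 TPM (median 17.5) and K36M oocyte-derived embryos 1.69 to 58.0 TPM (median 32.6). The control groups did not overlap. In the K36M libraries 7 of 8 embryos lay above every FGO library and 1 embryo, at 1.69 TPM, lay within their range. The difference was 3.83 (SE 0.68, limma adjusted p = 0.00108) in controls and 3.44 (SE 0.92, limma adjusted p = 0.0139) in K36M libraries, with an exact permutation p of 0.0121 in the latter. In controls Hk1 reached the 1 TPM mean needed for testing only through the embryos, so that call had little room to go otherwise. The K36M call did not hold without K36M FGO replicate 2 (3.20, adjusted p = 0.0764) or replicate 3 (3.46, adjusted p = 0.0584). It was also lost with the replicate block (limma adjusted p = 0.0927). The RefSeq gene Hk1os overlaps Hk1, and the strand setting of the authors' counting was not given in the sources used here.

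The table holds a phosphofructokinase besides these 2 members, Pfkm, at 17.1 to 19.8 TPM in control FGOs and at a median of 11.2 TPM in control embryos. Pfkl (chr10:77986947-78009807), the liver type, was at 7.04, 7.29 and 9.88 TPM in control and 6.77, 11.4 and 11.1 TPM in K36M FGOs. Values in control embryos were 2.20 to 39.5 TPM (median 31.8) and K36M oocyte-derived embryos from 0.716 to 38.8 TPM (median 23.2). Although 6 of 7 control embryos lay above every control FGO library, the difference of 1.23 (SE 0.76, limma adjusted p = 0.246) did not pass the threshold, and it was 0.42 (SE 0.97, limma adjusted p = 0.769) in K36M libraries. Array weights carried the control difference past it (1.68, limma adjusted p = 0.00255). So did the replicate block (1.79, limma adjusted p = 0.0312), in which only replicates 1 to 3 bear on the stage difference.

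Pfkp (chr13:6579874-6649060), the platelet type, was at 10.1, 7.93 and 12.8 TPM in control FGOs and at 13.7, 13.6 and 13.4 TPM in K36M FGOs. Every K36M pool was above every control pool, by a difference of 0.39 (SE 0.22, 95% confidence interval -0.11 to 0.89, limma adjusted p = 0.559). The exact permutation p was 0.10, the smallest that 3 against 3 can give. The control embryos spread from 2.97 to 77.1 TPM (median 16.3) and K36M oocyte-derived embryos from 3.08 to 45.4 TPM (median 12.9), both around the FGO values, and the stage differences were 0.65 (SE 0.77) and 0.13 (SE 0.77). The share of Pfkp in the summed TPM of Pfkp and Pfkl was 52.1% to 67.0% in FGOs and 23.1% to 90.1% in embryos.

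Pkm (chr9:59656576-59679372), the pyruvate kinase of muscle and of most growing cells, was the second most abundant of the 10 genes in FGOs. The table does not separate its splice forms. It was at 179.5, 181 and 174 TPM in control FGOs and 175, 150.2 and 161 TPM in K36M FGOs. In control embryos it ranged from 126 to 324 TPM (median 233) and K36M oocyte-derived embryos from 126 to 323 TPM (median 259). Embryos lay on both sides of the FGOs, and the stage difference was 0.24 (SE 0.30, 95% confidence interval -0.40 to 0.88) in controls and 0.43 (SE 0.33, 95% confidence interval -0.28 to 1.14) in K36M libraries, neither past the threshold (limma adjusted p = 0.564 and 0.387).

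Mpc1 (chr17:8283787-8297667), a subunit of the mitochondrial pyruvate carrier, was at 15.5, 28.4 and 27.8 TPM in control and 12.4, 20.2 and 18.4 TPM in K36M FGOs. Control embryos ranged from 11.3 to 125 TPM (median 74.4) and K36M oocyte-derived embryos from 7.28 to 105 TPM (median 40.5). Most embryos were above the FGOs, 6 of 7 in controls and 7 of 8 in K36M libraries, but the differences of 1.23 (SE 0.66, limma adjusted p = 0.186) and 1.10 (SE 0.67, limma adjusted p = 0.262) did not pass the threshold. Under array weights the control difference did (1.53, limma adjusted p = 0.0101).

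Pdha1 (chrX:160122219-160138430), the X-linked alpha subunit of pyruvate dehydrogenase, was at 73.5, 79.8 and 68.7 TPM in control FGOs and 69.6, 73.6 and 75.9 TPM in K36M FGOs, the groups lying within each other. Control embryos ranged from 16.1 to 103 TPM (median 62.7) and K36M oocyte-derived embryos from 12.9 to 103 TPM (median 57.6). The stage difference was -0.31 (SE 0.49, limma adjusted p = 0.647) in controls and -0.61 (SE 0.54, limma adjusted p = 0.459) in K36M libraries.

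**Figure D3:**
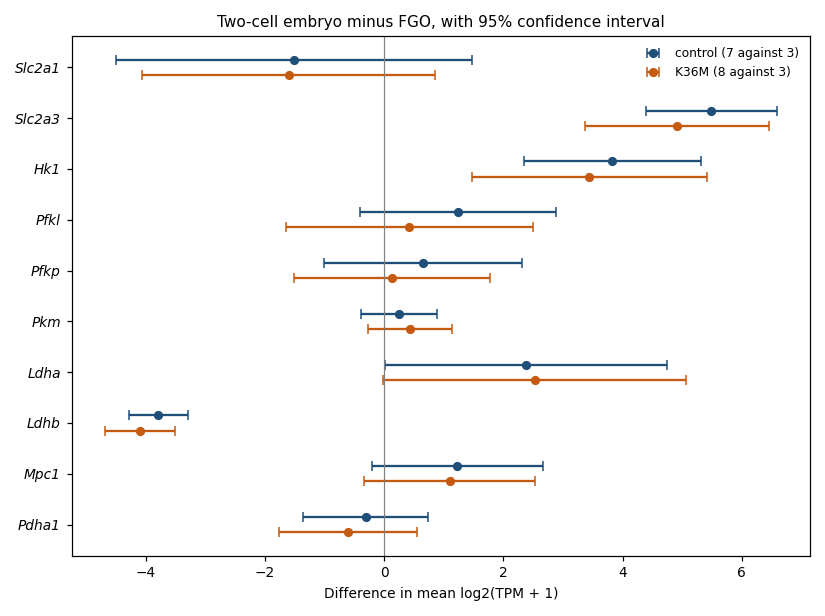
Difference in mean log2(TPM + 1) between two-cell embryos and FGOs for each gene, in control (7 against 3 libraries) and K36M (8 against 3) samples, with 95% confidence intervals from limma. Ldhb lies near -4 and Slc2a3 near 5 in both genotypes, and the intervals of Pfkl, Pfkp, Pkm, Mpc1, Pdha1 and Slc2a1 span 0 in both.

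In the stage comparison of controls, 3 of the 10 genes were called, 2 higher and 1 lower in embryos, where 30.5% of the 16914 genes tested were called, 15% higher and 15.5% lower. The 3 called genes were also those whose groups did not overlap, which 32.7% of all genes tested shared, and 4 had an unadjusted p under 0.05, beside 41.1%. In the K36M stage comparison 3 of 10 genes were called, against 25.3% of 16677 genes, 2 of them higher (9.86% of all genes) and 1 lower (15.4%). An unadjusted p under 0.05 was found for 3 of 10, beside 36.6% of all genes, and 2 had groups that did not overlap, against 26.3%. With 1 FGO library left out, 3015 to 3056 genes were called in controls, against 5159, and 2342 to 2382 in K36M libraries, against 4217, while 3 members were called in controls and 2 or 3 in K36M libraries. Slc2a3 in both genotypes and Hk1 in controls passed the filter on low values only through the embryos, so their calls had little room to go otherwise. The median difference over the 10 genes was 0.94 in controls and 0.42 in K36M libraries, beside 0.08 and -0.16 over all genes tested. Stage cannot be told apart here from the number of cells per library, from the second amplification step (10 cycles for FGOs, 13 for embryos) or from superovulation and culture. The 2 stage comparisons used different libraries.

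Between K36M and control FGOs, 0 of the 8 genes tested were called by limma, and 0 had an unadjusted p under 0.05, beside 0.00726% of 13775 genes called and 10.5% under 0.05. With 1 library left out, 0 to 300 genes were called over all genes, and 0 of the members. The differences ran from -0.45 (Mpc1, SE 0.27) to 0.39 (Pfkp), and the smallest adjusted p was 0.559. Pfkp was the only 1 of the 8 whose groups did not overlap, where 15.6% of all genes tested had such groups. Slc2a3 and Hk1 did not reach the mean of 1 TPM needed for the test, and without that filter their differences were 0.06 (SE 0.22) and 0.46 (SE 0.35), with limma adjusted p-values of 0.936 and 0.736. The confidence intervals were narrow for Ldhb, Pkm (-0.34 to 0.06) and Pdha1 (-0.26 to 0.22), and wide for Ldha (-1.46 to 1.31). The summed oocyte markers of the 2 groups did not overlap either, and the part of that in these differences was not tested.

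In the two-cell embryos, 0 of 10 genes were called between K36M oocyte-derived and control embryos, beside 0% of 17362 genes, and limma gave an unadjusted p under 0.05 to 0 of the 10 and to 7.71% of all genes. Ldhb had the smallest p, with a difference of -0.39 (SE 0.26, limma adjusted p = 0.714, exact permutation p = 0.118). The values of all genes tested had a median difference of -0.26, which became -0.01 under quantile normalization, and the median over the 10 genes was -0.22. The other 9 ranged from -0.59 (Pfkl, SE 0.76) to 0.13 (Slc2a1, SE 1.08). Groups overlapped for all 10, as opposed to 0.115% of the whole set, for which they did not. Intervals were wide, from -2.11 to 2.37 for Slc2a1 and from -1.86 to 2.00 for Ldha, so that changes of several fold in either direction were not detectable for these genes, whereas the interval of Pkm ran from -0.55 to 0.64.

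**Figure D4:**
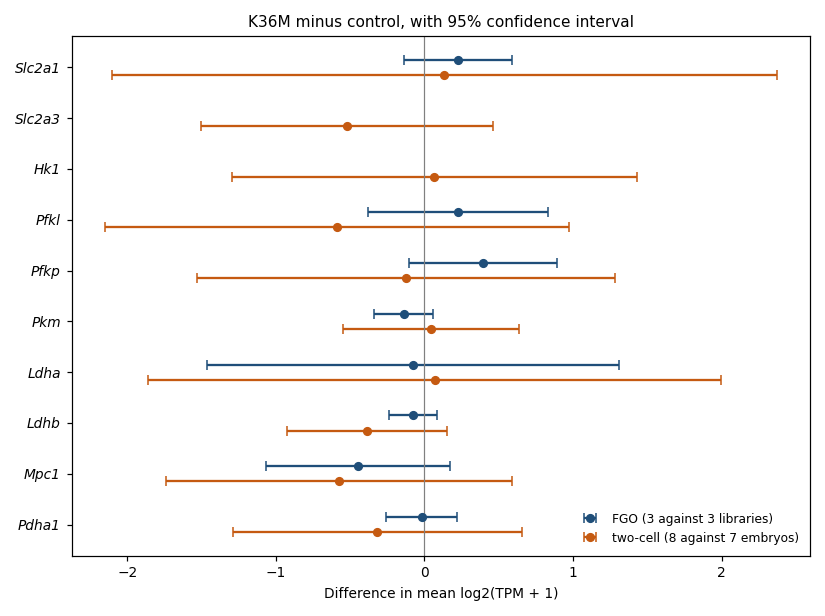
Difference in mean log2(TPM + 1) between K36M and control samples for each gene, in FGOs (3 against 3) and two-cell embryos (8 against 7), with 95% confidence intervals from limma. All intervals span 0. Slc2a3 and Hk1 have no FGO value because their mean was under 1 TPM there.

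The genotype difference was not found to change between stages. In 1 model over 21 libraries, 0 of 10 genes were called for the interaction, beside 0% of 17358 genes, and 0 of the 10 and 1.15% of all genes had an unadjusted p under 0.05. The estimates ran from -0.81 (Pfkl, SE 1.26) to 0.19 (Pkm, SE 0.45). The model gave FGO pools and single embryos 1 common variance per gene, although they differed much in spread. A share of 1.15% under 0.05 is smaller than that cut gives without any change. A gene not called here is therefore not shown to have an unchanged difference.

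Other genes of the pathway, 73 in 5 lists, place these 10 in context. Their counts are to be read against all genes tested, of which 15% were called higher and 15.5% lower in embryos in controls and 9.86% and 15.4% in K36M libraries, with median differences of 0.08 and -0.16. Of 20 other glycolysis genes tested, 3 were higher and 0 lower in control embryos than in control FGOs, with a median difference of 1.15, and the share called higher was that of all genes. The 3 were Pfkfb4 (4.01, SE 1.12) and Pfkfb3 (2.17, SE 0.45), which encode enzymes that make fructose 2,6-bisphosphate, an activator of phosphofructokinase, and Tigar (1.37, SE 0.42), which encodes one that breaks it down. The related Pfkfb1 (-1.02, SE 0.76) and Pfkfb2 (0.93, SE 0.96) were not called. In K36M libraries 0 of 20 were called by limma, with 3 at an unadjusted p under 0.05, beside 36.6% of all genes. Pfkfb4 was at 0.0561 to 0.434 TPM in control FGOs and at a median of 30.4 TPM in control embryos, and it passed the filter on low values only through the embryos.

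Pyruvate and lactate genes went both ways. In controls 5 of 19 were higher and 4 lower in embryos, with a median difference of 0.28. The 5 were Pdp2 (6.21, SE 0.38), a phosphatase that switches pyruvate dehydrogenase on, Slc16a3 (2.99, SE 0.75) and Slc16a1 (1.44, SE 0.27), which carry lactate and pyruvate across the cell membrane, Mpc2 (1.76, SE 0.50), the partner of Mpc1, and Pdpr (1.39, SE 0.29), a regulator of pyruvate dehydrogenase phosphatase. Pdp2 was at 2.23 to 3.62 TPM in control FGOs and 136 to 444 TPM in control embryos (median 348). The 4 lower genes were Dld (-3.03, SE 0.55), Pdhx (-2.77, SE 0.44) and Dlat (-2.70, SE 0.68), which encode other parts of the pyruvate dehydrogenase complex, and Pdha2 (-2.05, SE 0.49), the testis form of Pdha1. Slc16a3 passed the filter only through the embryos and Pdha2 only through the FGOs.

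In K36M libraries 2 of 19 were higher, Pdp2 (5.61, SE 0.33) and Pdpr (1.53, SE 0.41), and 5 lower, with a median difference of -1.25. Those 5 were Ldhd (-3.76, SE 1.22), a dehydrogenase of D-lactate, Pdp1 (-3.59, SE 0.86), another phosphatase of the complex, and again Dlat (-3.53, SE 0.88), Dld (-3.22, SE 0.68) and Pdhx (-2.62, SE 0.58). Dld stood at 328 to 347 TPM in control FGOs and at 7.87 to 78.4 TPM in control embryos. Pdhx went from 244 to 270.4 TPM in control FGOs to 16.9 to 84.7 TPM in control embryos. Pdhb, the beta subunit that pairs with Pdha1, did not pass the test in either genotype, with differences of 1.27 (SE 0.46, limma adjusted p = 0.0529) in controls and 1.34 (SE 0.51, limma adjusted p = 0.0679) in K36M libraries. The genes of these counts that were not among the largest in their direction were named after their values were seen.

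Citrate cycle genes were lower in embryos in 8 of 16 cases and higher in 0 of 16 in each genotype, with a median difference of -1.72 in controls and -1.71 in K36M libraries. Of the 8, 6 were called in both genotypes, Idh3a and Ogdh in controls alone and Sdhc and Suclg1 in K36M libraries alone. Sdhd, a membrane anchor of succinate dehydrogenase, went from 125 to 133 TPM in control FGOs to 0 to 32.6 TPM in control embryos (-5.16, SE 0.97), and in K36M libraries the difference was -6.25 (SE 0.82). Sdhb, the iron-sulfur subunit of the same enzyme, changed by -4.32 (SE 1.10) and -4.94 (SE 0.98). Fh1, the fumarase, was lower in embryos in both genotypes (-3.05, SE 0.73, and -4.63, SE 1.29). Suclg1, a subunit of succinyl-CoA ligase, was lower in K36M embryos (-4.73, SE 0.58), where it passed the filter only through the FGOs, and its difference in controls was -2.98 (SE 1.17, limma adjusted p = 0.0707).

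Of 4 other glucose transporters tested in controls, Slc2a4 (3.40, SE 0.61) and Slc2a8 (2.85, SE 0.90) were higher and Slc2a12 (-2.45, SE 0.83) lower in embryos. Slc2a4 (0.0166 to 0.656 TPM in control FGOs) and Slc2a8 (0 to 0.185 TPM) passed the filter only through the embryos. In K36M libraries 1 of 4, Slc2a10, was lower (-2.41, SE 0.76), with a difference of -1.77 (SE 0.87, limma adjusted p = 0.145) in controls. Of 7 pentose phosphate genes, Rpia was higher in both genotypes (1.62, SE 0.25, and 1.49, SE 0.48), and G6pdx, the entry enzyme, was lower in both (-2.02, SE 0.25, and -2.38, SE 0.45). In K36M libraries Pgd was higher (1.59, SE 0.55), and its difference in controls was 1.62 (SE 0.69, limma adjusted p = 0.0944). Pgls was lower in K36M embryos (-2.98, SE 0.71), where it passed the filter only through the FGOs, and its difference in controls was -1.27 (SE 0.89, limma adjusted p = 0.309). A call in 1 genotype alone shows no difference between genotypes, and 0 of these genes were called for the interaction. That model gave both stages 1 common variance per gene.

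**Figure D5:**
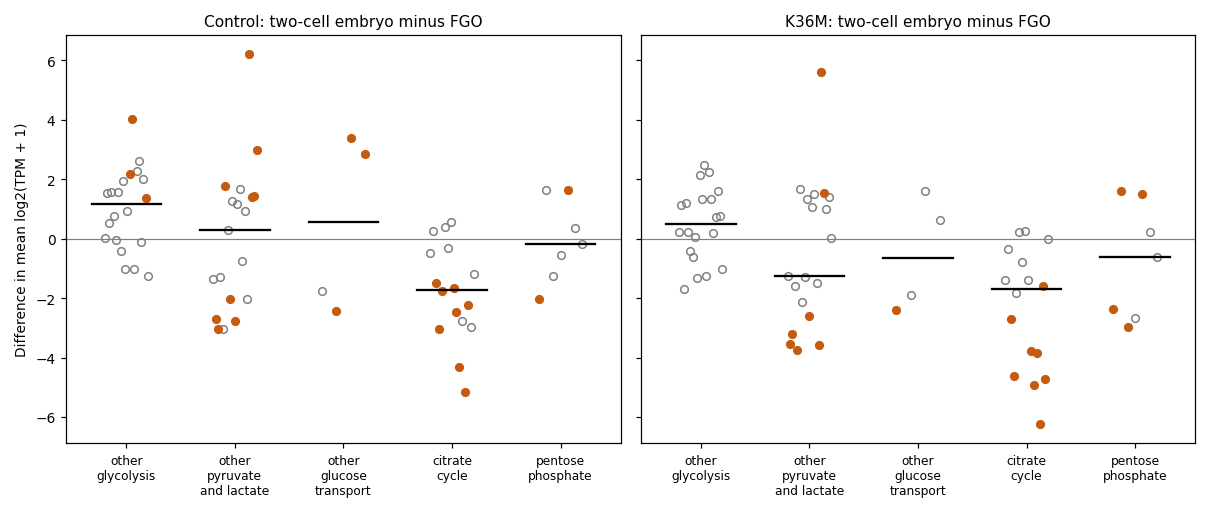
Difference in mean log2(TPM + 1) between two-cell embryos and FGOs for the other genes of the pathway, in controls (left) and K36M libraries (right). Each point is a gene, filled where the limma adjusted p is under 0.05 and open otherwise, and the line is the median of the list. The filled points of the citrate cycle list all lie below 0.

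None of the 5 lists had a called gene between genotypes, in FGOs (0 of 55 tested), in embryos (0 of 67) or for the interaction (0 of 66), with 7, 6 and 0 genes at an unadjusted limma p under 0.05, beside 10.5%, 7.71% and 1.15% of all genes. The smallest p-values in FGOs were those of Suclg2 (-0.67, SE 0.18, adjusted p = 0.353) and Sdhb (0.43, SE 0.12, adjusted p = 0.362). In embryos they were those of Rpe (-2.38, SE 0.84, limma adjusted p = 0.562) and Slc2a4 (-1.91, SE 0.72, limma adjusted p = 0.566). For the interaction they were those of Slc2a4 (-1.80, SE 1.05) and Slc2a8 (-2.23, SE 1.31).

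Genes with the pattern most like each member were found by the root mean square difference of log2(TPM + 1), each gene centred on its own mean, over 21 libraries and 17358 genes. For Ldhb they were Svbp (0.38), Gm38425 (0.39) and Lrrc36 (0.40), all at a median of 0 TPM in embryos, so the likeness is one of a difference and not of a level. Slc2a3 was nearest to Meioc (0.68), Klf4 (0.69) and Fzd5 (0.73), and Hk1 to Mtcl1 (0.76), Sox1 (0.80) and Nrarp (0.83). Klf4 went from a median of 11.8 TPM in control FGOs to 367 TPM in control embryos. The closest likeness of all was that of Pkm to Cul4b (0.33), Ddx5 (0.34) and Trim37 (0.35), and Pdha1 was nearest to Cfl1 (0.51), Cltc (0.52) and Dnajc2 (0.53).

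The same was done for the remaining members. Pfkp was nearest to Vcl (0.66), Cmtr1 (0.71) and Spag5 (0.71), Pfkl to Mif4gd (0.66), Paics (0.67) and Arpc1a (0.71), and Mpc1 to Ptpdc1 (0.69), Serinc5 (0.71) and Gm29681 (0.71). Ldha was nearest to Irs2 (0.94), Bcat2 (1.03) and Ubald2 (1.10), and Slc2a1 to Wbp4 (1.20), Slc9a3r2 (1.27) and 1700030C12Rik (1.37). Libraries, and the spread between single embryos, are shared by all of these values.

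Reads of 53 bases cannot always be given to 1 place in the genome. Of the 53-base words in the transcripts of Mpc1, 45.0% also occur elsewhere in the genome, and the share was 24.1% for Ldhb, 22.8% for Pkm and 16.2% for Ldha, under 1% for Pdha1 (0.465%) and Pfkl (0.240%), and 0% for the others. Among the other genes it was 94.5% for Pgam1, 92.7% for Pgk1, 60.1% for Gapdh, 48.9% for Eno1 and 32.0% for Pdhb, and Gapdh was listed at 3.27 to 4.41 TPM in the control FGOs. How the authors' counting treated such reads was not given in the sources used here, so the levels of genes with many such words, and their place in the order of genes, are uncertain. These levels would be too low if such reads were dropped. RefSeq genes overlap 8 of the 10, Pfkl and Ldhb being the exceptions.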

How the data were processed

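RNA was measured in 6 libraries of 5 FGOs and in 16 single late two-cell embryos, grouped by the sample labels, and 21 libraries were used. The authors trimmed reads (Trim Galore!), aligned them (Hisat2), took out those of ribosomal RNA (BEDTools), counted genes (featureCounts) and deposited TPM values for 26214 genes, in which each library sums to 1000000. The gene annotation, gene lengths and strand setting were not given in the sources used here. TPM keeps no depth, so no interval based on reads is given and no count test was run.

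Differences were estimated on log2(TPM + 1) by limma 3.58.1 under R 4.3.3, using lmFit and a trended eBayes. Genes entered a fit when their TPM averaged 1 or more in its libraries, p-values were adjusted over all of them by the Benjamini-Hochberg method, and the threshold was 0.05. Exact two-sided permutation tests used the absolute difference of means over libraries. The fitting step was first tested on simulated data with known changes. These data had 1 spread per gene for both groups, so the larger spread of embryos was not covered, and the interaction was not simulated. Gene positions, promoter stretches and overlaps came from RefSeq on GRCm38.p6, the assembly of mm10, in which 99.8% of the symbols were found. Words of 53 bases from GENCODE M21 transcripts were searched in the GRCm38 chromosomes. Python 3.11.15, numpy 2.4.6, pandas 2.3.3 and matplotlib 3.10.9 were used.

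The 10 genes, the pathway and marker lists, the tests and the alternatives were chosen with earlier results of these data known. Besides the 10, the text names up to 3 genes per direction with the largest called difference in each comparison or, where none was called, the 2 with the smallest p, and the 3 genes most like each member. Ldhc was named after its values were seen. As alternatives, the fits were repeated with a pseudocount of 0.1, every gene above 0, a minimum mean TPM of 5, quantile or median-of-ratios scaling, eBayes without the trend, array weights, a block for the replicate number, each FGO library left out in turn, and control embryo replicate 4 added.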

Additional observations from a re-analysis of the deposited data

Results flagged for a closer look

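Ldhb was at 465 TPM in K36M oocyte-derived embryo replicate 1, where the other 7 embryos of that group held at most 250.5 TPM. On log2(TPM + 1), the gap to the nearest of them was 0.585 of the range of the group, above the 95% critical value of 0.526 for 8 samples, and in TPM it was 0.707. Pdha1 was at 16.1 TPM in control embryo replicate 1, below the other 6 control embryos, with a gap of 0.661 of the range on log2(TPM + 1) against a critical value of 0.568 for 7 samples, but of 0.452 in TPM, which is below that value. For the 10 genes in the 2 groups of embryos, 20 sets of values were examined, 2 stood out in this way on log2(TPM + 1), and chance gives about 1 in 20. In TPM 6 embryo values did, each the highest of its group: Ldhb as above, Ldha in both groups, Slc2a1 in K36M oocyte-derived embryos, and Hk1 and Pfkp in control embryos.

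Control embryo replicate 4, which the study did not use, had 100.3 TPM of Ldha, above the highest of the 7 other control embryos (65.0 TPM). Of the 10 genes, it lay above their range for 1, below it for 4 (Slc2a3, Hk1, Pkm and Pdha1) and within it for 5.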

How the results depend on the processing

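Ldhb and Slc2a3 kept their direction and their call in both stage comparisons under every alternative run, with differences of -4.27 to -3.42 for Ldhb and of 4.76 to 7.94 for Slc2a3, and Hk1 did so in controls (3.52 to 5.17). Slc2a3, and Hk1 in controls, passed the filter on low values only through the embryos, so their calls had little room to go otherwise. In the K36M stage comparison the call of Hk1 was lost without K36M FGO replicate 2 or 3 and with a replicate block (limma adjusted p = 0.0764, 0.0584 and 0.0927). Of the 581 alternative values of single members, 540 had the same direction and side of the threshold, 8 gained a call, 3 lost it and 30 changed sign, and no changed sign came with a call. The number of members called was 6 in controls and 5 in K36M libraries under array weights, and 5 in controls with the replicate block, in which Pfkl and Ldha gained a call. In K36M libraries it was 4 under quantile normalization, 2 with the replicate block and 2 without K36M FGO replicate 2 or 3, against 3. Over all genes, K36M against control FGOs gave 0 calls with a pseudocount of 0.1, with all genes, without the trend and with the replicate block, and 0 to 300 when 1 library was left out, the highest without K36M replicate 1. Embryos gave 5 without the trend and 1 with array weights. The stage comparisons gave 9396 (controls) and 8212 (K36M) with array weights, 3015 to 3056 and 2342 to 2382 when 1 FGO library was left out, and 2385 (K36M) with the replicate block, against 5159 and 4217. The interaction gave 13 with all genes, 1 without the trend, 3 with array weights and 0 to 3 when 1 library was left out. The cause of these moves was not tested. In the stage comparisons the replicate block leaves the difference to replicates 1 to 3, the only numbers that FGOs and embryos share. Changes of sign were those of Ldha in FGOs (0.027 with a pseudocount of 0.1, 0.13 with array weights, -0.64 to 0.30 with 1 library left out) and Pdha1 in FGOs (-0.069 to 0.038 with 1 left out). In embryos they were Pfkp under quantile normalization (0.25), Slc2a1 and Hk1 with array weights (-0.14 and -0.21) and Ldha with control replicate 4 (-0.29). In the stage comparisons they were Slc2a1 and Pkm in controls with the replicate block (0.25 and -0.031) and Pfkp in K36M libraries under median-of-ratios scaling (-0.020). For the interaction they were Slc2a1 with a pseudocount of 0.1 (0.38), quantile normalization (0.037), median-of-ratios scaling (0.025), the replicate block (0.14) and control replicate 4 (0.34), Mpc1 under quantile normalization (0.065) and median-of-ratios scaling (0.023), Hk1 with the replicate block (0.059) and Ldha with control replicate 4 (-0.22). With 1 library left out, the interaction of Slc2a1 ran from -0.18 to 0.043, of Mpc1 from -0.32 to 0.15 and of Ldha from -0.23 to 0.71. Replicate numbers were not found to pair the samples. Same-numbered libraries had deviations that correlated by -0.10 to 0.10. In no comparison did every pair pass 0.1 or every library correlate best with its own number. Between K36M and control FGOs 1 of 3 pairs passed 0.1, and 2 of 3 libraries correlated best with their own number, as in the K36M stage comparison. With 3 FGO libraries per group this check can miss a pairing. The spread between single embryos and the 3 libraries per FGO group limited what could be detected. Where embryos were compared this held most of all for Slc2a1 and Ldha, and between FGO groups for Ldha. TPM values do not carry the depth of a library.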
